A study of Mus musculus with 9 samples.

Results

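Cd4, Cd8a, Cd8b1, Cd2, Cd5 and Cd6 encode surface receptors that stand beside the T cell receptor. The 6 genes were taken by symbol from the gene-name column of 9 count tables that held 42454 names, and all 6 passed the filter on low counts that left 18243 names for testing. MC38, a colorectal carcinoma line of the mouse, was grown as tumours in C57BL/6J hosts until day 21 after inoculation. There were 5 tumours of MC38 cells with CD43 knocked out (CD43-KO) and 4 of Vec-MC38 cells (Vec), whose genotype label is WT. The labels attach the knockout to the implanted cells and name the same host strain for both groups. The labels do not say whether the CD43-KO cells are 1 clone, and they give no sex, age or batch of the mice. Bulk RNA of whole tumour tissue was sequenced, so every level is that of a mixture of carcinoma and host cells.

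CD4 and CD8 are the coreceptors that mark the main lineages of T cells. CD4 binds MHC class II and CD8 binds MHC class I, and both bring the kinase LCK to the T cell receptor. CD8 on most cytotoxic T cells is a pair of the chains encoded by Cd8a and Cd8b1, while some dendritic cells and intraepithelial lymphocytes in mice carry CD8α alone. CD2 is an adhesion receptor of T and natural killer cells whose ligand in mice is CD48. CD5 and CD6 are related scavenger receptor cysteine-rich proteins that dampen signals of the T cell receptor; CD5 is also found on B-1 cells, and CD6 binds ALCAM.

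Cd4, Cd8a and Cd8b1 lie on chromosome 6 of GRCm38, at 124864692 to 124888221, 71373427 to 71379173 and 71322788 to 71337494. Cd2 lies on chromosome 3 at 101275899 to 101287939. Cd5 and Cd6 are neighbours on chromosome 19, at 10717116 to 10739002 and 10789341 to 10830058. No other gene of the GENCODE M21 annotation overlaps any of the 6. The RefSeq promoter table (GRCm38.p6) held 2 of the 6 genes, one coreceptor chain and one inhibitory receptor, and both are shown because it held no others of the 6. The Cd8a window is the 250 bases before the gene's start. The Cd5 window of the table reached 52 bases into the RefSeq gene and 28 bases into the GENCODE gene, so the 198 bases outside both are shown. Capitals mark E-boxes (CANNTG), bound by E proteins, and an ETS-type motif (AGGAAG), both searched on both strands.
Cd8a, chr6:71373177-71373426, plus strand: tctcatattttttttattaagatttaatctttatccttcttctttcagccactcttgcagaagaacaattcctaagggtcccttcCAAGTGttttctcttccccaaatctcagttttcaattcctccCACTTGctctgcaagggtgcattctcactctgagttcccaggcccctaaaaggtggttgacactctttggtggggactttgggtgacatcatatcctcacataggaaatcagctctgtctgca
Cd5, chr19:10739027-10739224, minus strand: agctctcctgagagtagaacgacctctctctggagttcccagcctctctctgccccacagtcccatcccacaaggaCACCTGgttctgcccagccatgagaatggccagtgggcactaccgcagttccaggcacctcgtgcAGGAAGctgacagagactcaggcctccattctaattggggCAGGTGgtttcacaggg
Each sequence held 2 E-boxes. Counted back from the RefSeq gene start, they began at -165 and -123 in Cd8a and at -122 and -17 in Cd5. The ETS-type motif was found 1 time in Cd5, beginning at -57, and not in Cd8a. Of all 32851 windows in the table, E-boxes stood in 66.2% over 250 bases and in 57.8% over 198 bases, and the ETS-type motif in 29.5% over 250 bases and in 24.5% over 198 bases. A RUNX motif (TGTGGT) and a GATA motif (AGATAA) were in neither sequence. Over 250 bases they stood in 14.04% and 9.99% of all windows, and over 198 bases in 11.1% and 7.65%. These letters are a description of the sequence and show no binding.

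Total counts ranged from 44814061 to 62194418 in CD43-KO libraries and from 60751738 to 72114385 in Vec libraries. Spn, which encodes CD43, was lower in all 5 CD43-KO tumours than in any Vec tumour, at 6.81 to 33.6 CPM against 41.04 to 53.8 CPM. Of all names tested, 3.50% likewise had every CD43-KO value below every Vec value. The log2 fold change of Spn was -0.93 ± 0.36 (SE), with an edgeR adjusted p of 0.280 and a two-sided exact permutation p of 0.0238. CPM are counts relative to library size, here scaled by TMM factors, which correct for differences in RNA composition between libraries. On the leading axis of a principal component analysis, which held 34.88% of the variance, CD43-KO replicate 3 lay at 100.02 and the other 8 tumours between -45.64 and 51.17. It also held most of the muscle and fat transcripts, with summed levels of 1053 CPM for 6 muscle markers and 482 CPM for 6 fat markers. The other tumours had at most 110 CPM of muscle markers and 32.1 CPM of fat markers. The receptor genes, the ratios and the medians of the lists are therefore also given without this tumour, while means and SDs of single genes are over all tumours unless stated.

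All 6 receptor genes had a higher mean in CD43-KO than in Vec tumours, and none passed the test over all genes. Their log2 fold changes (CD43-KO over Vec, edgeR) lay between 0.90 for Cd8a and 1.35 for Cd2, with a median of 1.11, against a median of 0.03 over all names tested. The edgeR quasi-likelihood test with Benjamini-Hochberg adjustment called 0 of 18243 names (0%) at an adjusted p of 0.05, while DESeq2 called 612 and limma voom with quality weights 562. At an unadjusted edgeR p under 0.05 there were 2806 names. Of the 6 genes, 5 had a higher level at that unadjusted threshold, against 7.75% of all names. A log2 fold change above 0 was found in 6 of 6, against 54.0% of all names. In 6 of 6, at least 3 of the 5 CD43-KO tumours lay above every Vec tumour, against 23.0% of all names. This cut was not part of the planned tests. In each gene CD43-KO replicates 1, 2 and 3 were among those above, so the 6 genes share a pattern and are not 6 separate results. In a bulk sample, more T cells and more of these transcripts per T cell cannot be told apart. The labels do not state that the tumours came from separate animals, and the p-values measure the spread between these samples.

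**Figure D1:**
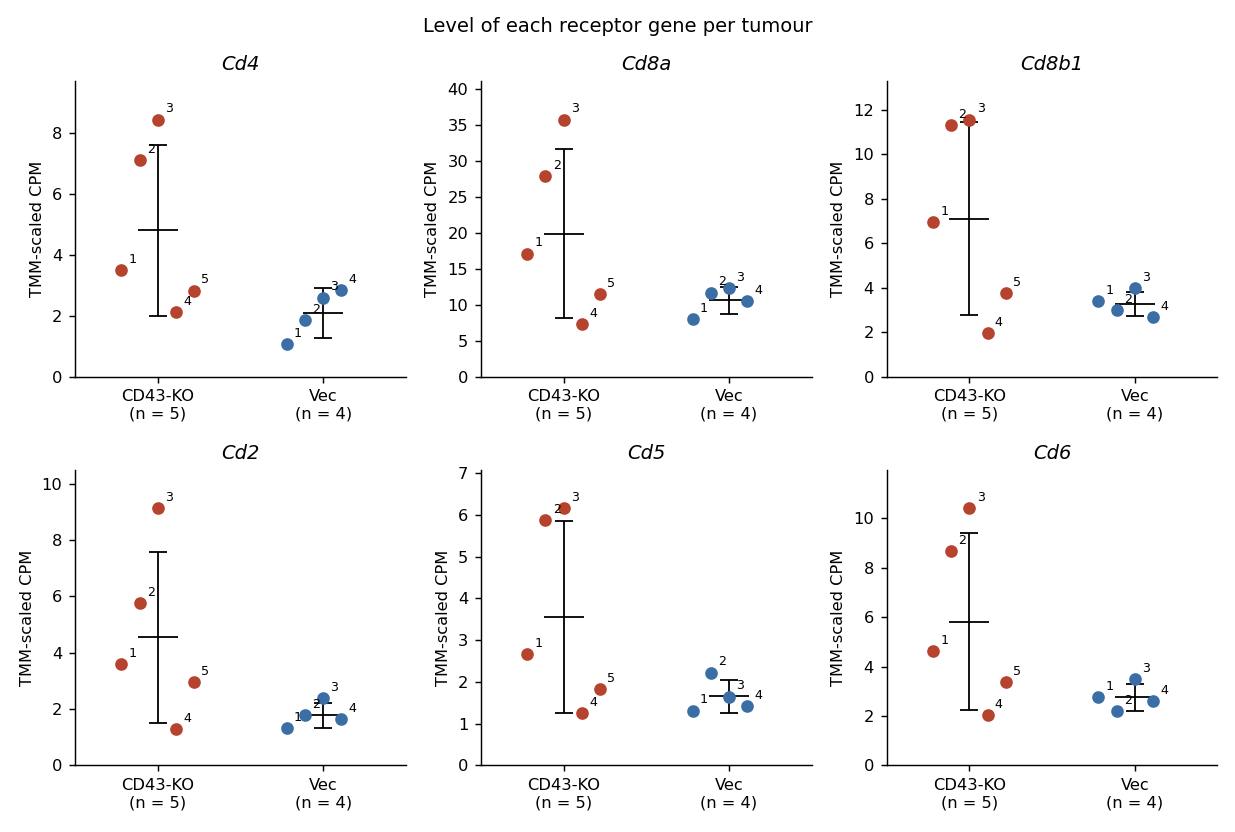
TMM-scaled CPM (y axis) of Cd4, Cd8a, Cd8b1, Cd2, Cd5 and Cd6 in 5 CD43-KO and 4 Vec tumours; points are tumours numbered by replicate, bars are the mean and SD. CD43-KO replicates 1, 2 and 3 lie above every Vec tumour in all 6 panels, and CD43-KO replicate 4 lies below every Vec tumour in all panels except that of Cd4.

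Among the coreceptors, Cd8a was the most abundant of the 6 genes. CD43-KO replicates 1 to 5 had 17.1, 27.9, 35.7, 7.31 and 11.4 CPM of Cd8a, against 7.99, 11.7, 12.3 and 10.5 CPM in Vec replicates 1 to 4. The CD43-KO tumours thus fell on both sides of the Vec tumours, with 3 above all of them and 1 below. The means were 19.9 ± 11.8 CPM in CD43-KO (SD, n = 5) and 10.6 ± 1.91 CPM in Vec tumours (SD, n = 4). The log2 fold change was 0.90 ± 0.41 (SE), with an edgeR adjusted p of 0.329 and a two-sided exact permutation p of 0.222. Cd8b1, the partner chain, had 6.97, 11.3, 11.6, 1.96 and 3.75 CPM in CD43-KO replicates 1 to 5, against 3.39, 2.99, 3.99 and 2.70 CPM in Vec replicates 1 to 4. The groups overlapped in the same way as for Cd8a, with CD43-KO replicate 4 lowest of all 9. Its log2 fold change was 1.12 ± 0.46 (SE, edgeR adjusted p = 0.297, two-sided exact permutation p = 0.175).

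Cd4 was less abundant and the lowest value stood in a Vec tumour. CD43-KO replicates 1 to 5 had 3.50, 7.09, 8.43, 2.13 and 2.82 CPM of Cd4, against 1.06, 1.86, 2.59 and 2.85 CPM in Vec replicates 1 to 4. CD43-KO replicates 4 and 5 lay within the range of the Vec tumours, and none lay below it. The log2 fold change was 1.20 ± 0.45 (SE, edgeR adjusted p = 0.274, two-sided exact permutation p = 0.0952). The lowest count behind these values was 67 reads of Cd4 in Vec replicate 1, whose exact Poisson 95% interval of 51.9 to 85.1 covers counting error only. The other Cd4 counts lay between 125 and 460.

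Cd2, the adhesion receptor, had the largest log2 fold change of the 6 genes and separated 4 of the 5 CD43-KO tumours from all Vec tumours. Its levels were 3.59, 5.75, 9.13, 1.28 and 2.96 CPM in CD43-KO replicates 1 to 5, against 1.31, 1.77, 2.38 and 1.64 CPM in Vec replicates 1 to 4. CD43-KO replicate 4 was the exception, below every Vec tumour by a small margin. The log2 fold change was 1.35 ± 0.48 (SE, edgeR adjusted p = 0.262, two-sided exact permutation p = 0.103). The tables list the gene a second time as Cd2_1, with counts that were 97.6% to 105% of each other in the 9 libraries, for example 393 and 402 in CD43-KO replicate 3 and 83 and 85 in Vec replicate 1. Whether the same reads were counted under both names cannot be told from the tables, and the level of Cd2 is uncertain for that reason. Cd2_1 had a log2 fold change of 1.38 ± 0.49 (SE).

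The inhibitory receptors Cd5 and Cd6 had the same order of CD43-KO tumours, with lower levels per length than the other 4 genes. Cd5 had 2.66, 5.87, 6.15, 1.24 and 1.83 CPM in CD43-KO replicates 1 to 5, against 1.31, 2.22, 1.65 and 1.42 CPM in Vec replicates 1 to 4. Cd6 had 4.63, 8.66, 10.4, 2.03 and 3.36 CPM in CD43-KO replicates 1 to 5, against 2.76, 2.19, 3.48 and 2.59 CPM in Vec replicates 1 to 4. For both genes 3 CD43-KO tumours lay above the Vec range, 1 within it and 1 below. Log2 fold changes were 1.10 ± 0.47 for Cd5 and 1.08 ± 0.43 for Cd6 (SE), with edgeR adjusted p of 0.305 and 0.291 and two-sided exact permutation p of 0.183 and 0.175. The median log2 fold change of the 568 tested names on chromosome 19, where both genes lie, was -0.10. It was 0.05 over the 852 names on chromosome 6, where Cd4, Cd8a and Cd8b1 lie. Over the 837 names on chromosome 3, where Cd2 lies, it was -0.0022.

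The spread inside the CD43-KO group was wide and shared by the 6 genes. In each of them CD43-KO replicate 3 was highest of all 9 tumours, replicate 2 next and replicate 1 after it. CD43-KO replicate 4 was the lowest of all 9 tumours for Cd8a, Cd8b1, Cd2, Cd5 and Cd6, and the seventh for Cd4. The highest CD43-KO tumour exceeded the lowest by 3.96-fold for Cd4 to 7.15-fold for Cd2. In Vec tumours the same ratio was 2.69-fold for Cd4 and 1.48-fold to 1.82-fold for the other genes. Ptprc, which encodes the leukocyte protein CD45, lay between 37.1 and 148 CPM in CD43-KO and between 35.9 and 61.7 CPM in Vec tumours.

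**Figure D2:**
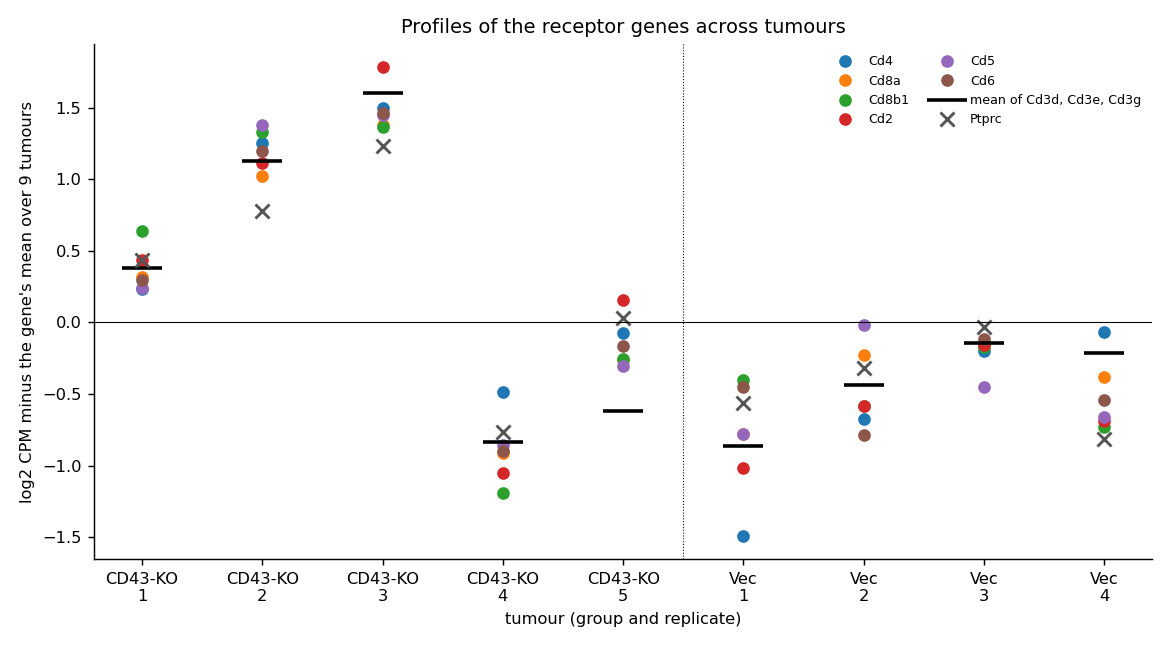
Log2 CPM of each gene minus its mean over 9 tumours (y axis) in CD43-KO replicates 1 to 5 and Vec replicates 1 to 4 (x axis); coloured points are the 6 receptor genes, black bars the mean of Cd3d, Cd3e and Cd3g, crosses Ptprc. All 6 receptor genes are highest in CD43-KO replicate 3, and in CD43-KO replicate 5 all 6 lie above the CD3 mean. They lie apart in Vec replicate 1, where Cd4 is the lowest of them.

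Levels per kilobase of exon gave the same order of the 6 genes in both groups. Cd8a averaged 5.47 ± 3.23 CPM per kb in CD43-KO and 2.92 ± 0.53 in Vec tumours (SD, n = 5 and n = 4, as for the genes that follow). Cd8b1 averaged 4.79 ± 2.92 CPM per kb in CD43-KO and 2.2 ± 0.38 in Vec tumours, and Cd2 2.61 ± 1.74 in CD43-KO and 1.02 ± 0.26 in Vec tumours. Cd4 averaged 1.19 ± 0.69 CPM per kb in CD43-KO and 0.52 ± 0.20 in Vec tumours. Cd6 averaged 0.73 ± 0.45 CPM per kb in CD43-KO and 0.35 ± 0.07 in Vec tumours, and Cd5 0.72 ± 0.47 in CD43-KO and 0.33 ± 0.08 in Vec tumours. Within a tumour, Cd8b1 was above Cd2 and Cd2 above Cd4 in 9 of 9 tumours. Cd8a was above Cd8b1 in 8 of 9 and Cd4 above Cd6 in 8 of 9. Cd6 and Cd5 lay within their spread of each other, with Cd6 higher in 7 of 9 tumours, by 1.31-fold at most, and Cd5 higher in the others, by 1.64-fold at most. These levels rest on the union of annotated exons, and the place of Cd2 depends on its uncertain count.

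The balance of CD8 to CD4 transcripts was lower on average in CD43-KO than in Vec tumours, and the difference did not pass. The ratio of Cd8a to Cd4 counts was 4.89, 3.93, 4.24, 3.43 and 4.05 in CD43-KO replicates 1 to 5, against 7.55, 6.28, 4.75 and 3.70 in Vec replicates 1 to 4. Vec replicates 1 and 2 stood above every CD43-KO tumour, and Vec replicates 3 and 4 lay among them. The means were 4.11 ± 0.53 in CD43-KO (SD, n = 5) and 5.57 ± 1.69 in Vec tumours (SD, n = 4). The log2 difference was -0.40, with an interval of -0.90 to 0.13 from the inverted exact test at 95%, a two-sided exact permutation p of 0.127 and an adjusted p of 0.452 over the 9 ratios tested. Per kilobase of exon the ratio lay between 3.80 and 5.42 in CD43-KO and between 4.10 and 8.37 in Vec tumours. Without Vec replicate 4 the log2 difference was -0.58 with an exact permutation p of 0.0357, and without Vec replicate 1 it was -0.23 with an exact permutation p of 0.286. Without CD43-KO replicate 3 it was -0.41 with an exact permutation p of 0.2. The p-values without single tumours are not adjusted over the 9 ratios. The smallest p that the splits of 9 tumours allow is 0.00794, and it is larger with a tumour left out.

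The ratio of Cd8b1 to Cd8a, the chains of the CD8 pair, overlapped between the groups. It was 0.41, 0.41, 0.32, 0.27 and 0.33 in CD43-KO replicates 1 to 5, against 0.42, 0.26, 0.32 and 0.26 in Vec replicates 1 to 4. The log2 difference was 0.15, with an interval of -0.37 to 0.66 and a two-sided exact permutation p of 0.444. For Cd6 to Cd5 the log2 difference was -0.0082, with an interval of -0.39 to 0.63 and an exact permutation p of 0.992. Both intervals run from a lower to a higher ratio in CD43-KO tumours, and they leave room for differences up to their bounds.

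Set against the CD3 chains that all T cells carry, the 6 genes showed no difference between groups that passed. The ratio was taken to the geometric mean count of Cd3d, Cd3e and Cd3g. Cd4 to CD3 was 0.45, 0.55, 0.47, 0.64 and 0.73 in CD43-KO replicates 1 to 5, against 0.32, 0.43, 0.48 and 0.56 in Vec replicates 1 to 4. Its log2 difference was 0.35, with an interval of -0.17 to 0.88. Cd2 to CD3 was 0.46, 0.44, 0.51, 0.39 and 0.77 in CD43-KO replicates 1 to 5, against 0.40, 0.41, 0.44 and 0.32 in Vec replicates 1 to 4. The log2 difference of Cd2 to CD3 was also 0.35, with an interval of -0.06 to 0.90. Both had a two-sided exact permutation p of 0.151 and an adjusted p of 0.452 over the 9 ratios. Cd8a to CD3 differed by -0.05 (interval -0.31 to 0.28), Cd8b1 to CD3 by 0.10 (-0.51 to 0.72), Cd5 to CD3 by 0.11 (-0.40 to 0.61) and Cd6 to CD3 by 0.11 (-0.38 to 0.59), all on the log2 scale. Their exact permutation p lay between 0.579 and 0.706. In CD43-KO replicate 5 each of the 6 ratios was the highest of its group. Cd2 to CD3 fell to 0.20 on the log2 scale without this tumour, and Cd4 to CD3 to 0.20 without Vec replicate 1. Without CD43-KO replicate 3 they were 0.35 for Cd2 and 0.41 for Cd4, and the difference of Cd8b1 to Cd8a was 0.17. In the same setting the difference was 0.00012 for Cd8a to CD3, 0.17 for Cd8b1 to CD3 and 0.17 for Cd5 to CD3. It was 0.15 for Cd6 to CD3 and -0.012 for Cd6 to Cd5.

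**Figure D3:**
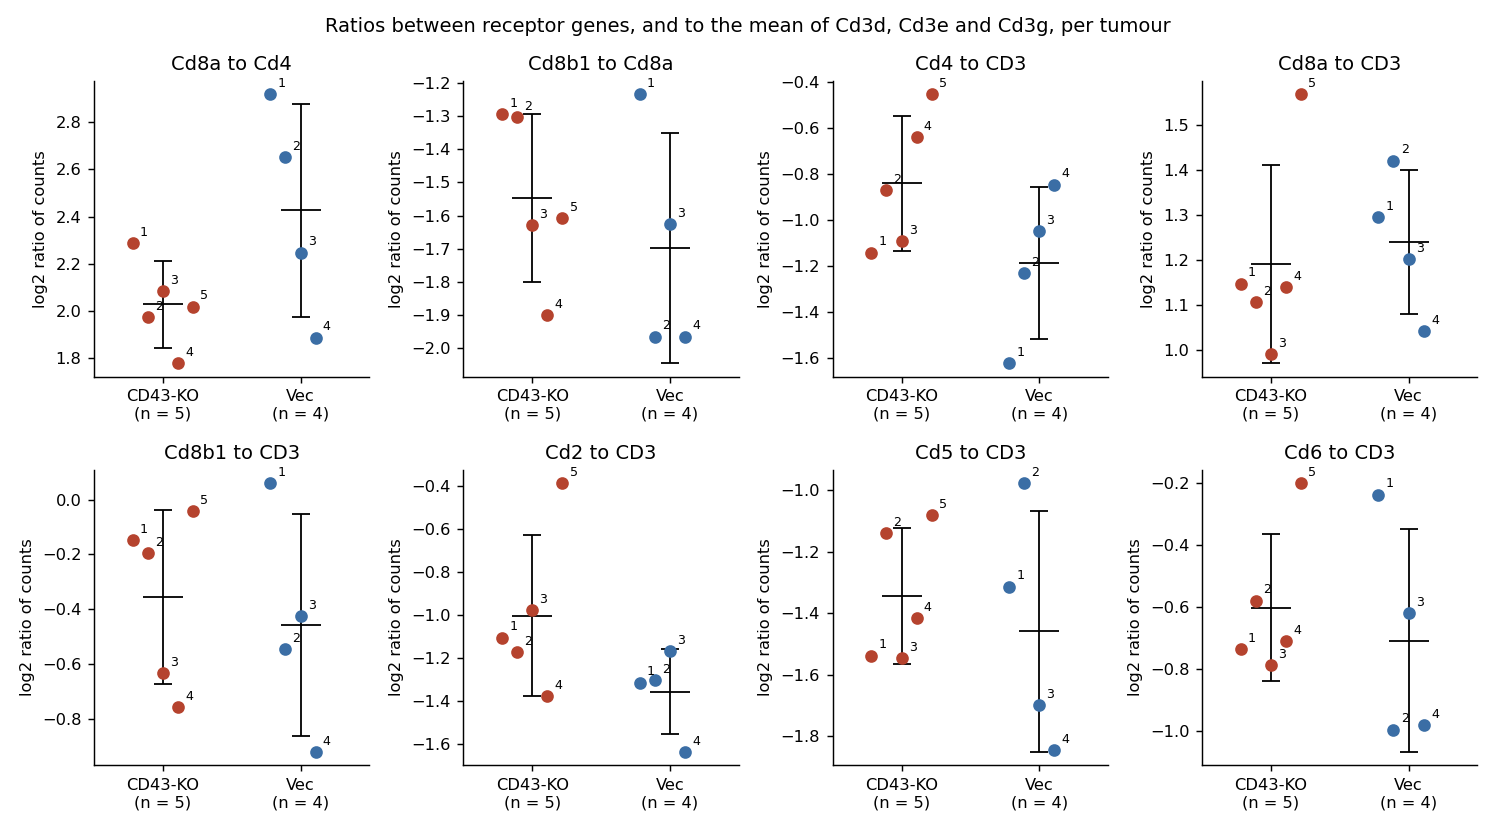
Log2 ratios of counts (y axis) of Cd8a to Cd4, of Cd8b1 to Cd8a and of each receptor gene to the mean of Cd3d, Cd3e and Cd3g in 5 CD43-KO and 4 Vec tumours; points are tumours numbered by replicate, bars are the mean and SD. The groups overlap in every panel, and Vec replicates 1 and 2 lie above every CD43-KO tumour for Cd8a to Cd4.

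The CD3 genes themselves also had higher means in CD43-KO tumours, and none passed. Cd3d was at 11.4 ± 8.91 CPM in CD43-KO and 5.27 ± 1.24 CPM in Vec tumours (SD, n = 5 and n = 4, edgeR adjusted p = 0.349). Cd3e was at 6.28 ± 3.62 CPM in CD43-KO and 3.41 ± 0.43 CPM in Vec tumours (edgeR adjusted p = 0.340), and Cd3g at 11.2 ± 8.89 CPM in CD43-KO and 5.28 ± 1.84 CPM in Vec tumours (edgeR adjusted p = 0.358). With replicate 3 left out of the CD43-KO group, Cd3d had a log2 fold change of 0.61, Cd3e of 0.71 and Cd3g of 0.52, against 1.11, 0.88 and 1.09 over all tumours. As a percentage of Ptprc counts, Cd8a lay between 17.8% and 25.7% in CD43-KO and between 18.7% and 29.3% in Vec tumours. Cd4 lay between 4.10% and 6.54% of Ptprc counts in CD43-KO and between 2.48% and 7.93% in Vec tumours. These ranges overlap, while Ptprc itself was at 88.7 ± 42.5 CPM in CD43-KO and 47.7 ± 11.07 CPM in Vec tumours.

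Single tumours moved the fold changes without turning any of them. With CD43-KO replicate 3 left out, the log2 fold changes were 0.58 for Cd8a, 0.76 for Cd6, 0.81 for Cd5, 0.87 for Cd8b1, 0.89 for Cd4 and 0.93 for Cd2 (edgeR adjusted p from 0.240 to 0.413). When CD43-KO replicate 4 was left out, edgeR gave log2 fold changes of 1.12 for Cd8a to 1.59 for Cd2 (adjusted p from 0.151 to 0.162). DESeq2 on all tumours called none of the 6 (adjusted p from 0.0733 to 0.167). DESeq2 without CD43-KO replicate 4, an alternative added after the data were seen, called 6 of 6 as higher (adjusted p from 0.00207 to 0.0247), where it called 3.77% of all names as higher. On all tumours DESeq2 called 1.35% of names as higher. Both shares include names to which DESeq2 gave no adjusted p. These were 2196 of 18086 names without CD43-KO replicate 4 and 1510 of 18243 names on all tumours.

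**Figure D4:**
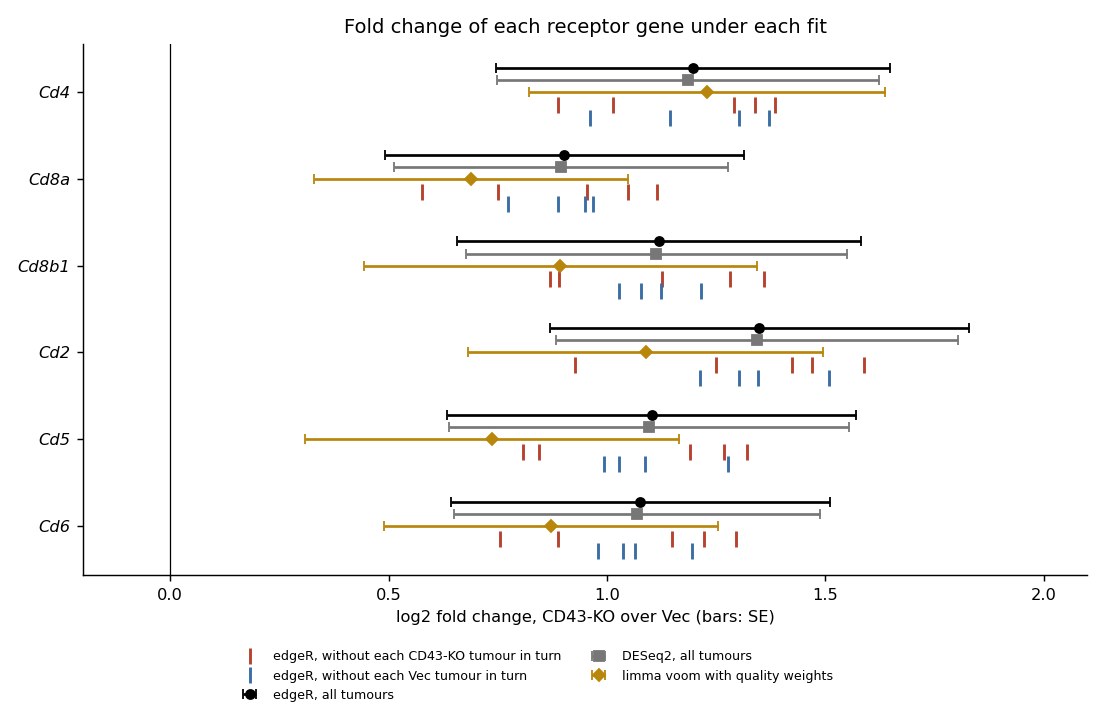
Log2 fold change, CD43-KO over Vec (x axis), of the 6 receptor genes; black, grey and gold points with SE bars are edgeR, DESeq2 and limma voom on all 9 tumours, red and blue ticks are edgeR values without each CD43-KO or Vec tumour in turn. Every value is above 0, and the lowest, 0.58, is that of Cd8a without CD43-KO replicate 3.

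Partners of the receptors gave mixed values, and edgeR called 0 members of any list described here, as it did over all names. The T cell receptor complex had 4 of 7 genes tested, all with a log2 fold change above 0 and with a median of 1.10. The tested genes were Cd3d, Cd3e, Cd3g and Cd247. The constant chains Trac, Trbc1 and Trbc2, named after their values were seen, did not pass the filter. Trbc1 had no count, and Trac and Trbc2 reached at most 2.04 and 0.09 CPM, both in CD43-KO tumours. Cd3d, Cd3e and Cd3g each had counts between 138 and 1110 in the same libraries. The values of the constant chains are therefore not taken as their levels, and why they were so low was not tested. Trac is also uncertain because the tables list a copy of it. In proximal signalling 11 of 12 were above 0, with a median of 0.81. Its most abundant member Csk, which encodes a kinase that restrains LCK, was at 132 ± 10.4 CPM in CD43-KO and 155 ± 21.7 CPM in Vec tumours. The adaptor gene Fyb was at 80.3 ± 8.28 CPM in CD43-KO and 63.01 ± 3.74 CPM in Vec tumours. Fyb was the one member of this list with no overlap between groups, named after its values were seen, against 2.08% of all names without overlap on the higher side.

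The ligand list had 7 of 9 genes above 0 and a median of 0.44. Its 3 most abundant members encode MHC class I, the ligand of CD8. B2m was at 1750 ± 503 CPM in CD43-KO and 1581 ± 206 CPM in Vec tumours, with a log2 fold change of 0.15 ± 0.19 (SE). H2-K1 was at 1386 ± 239 CPM in CD43-KO and 1326 ± 253 CPM in Vec tumours (0.06 ± 0.16 SE on the log2 scale). H2-D1 was at 765 ± 131 CPM in CD43-KO and 765 ± 75.5 CPM in Vec tumours. Of the MHC class II genes, which encode the ligand of CD4 and are named after their values were seen, H2-Ab1 was at 365 ± 184 CPM in CD43-KO and 246 ± 44.8 CPM in Vec tumours (0.57 ± 0.33 SE on the log2 scale). The log2 fold changes were 0.59 ± 0.36 for H2-Aa and 0.44 ± 0.30 for H2-Eb1 (SE). The difference between the classes was not tested, and these 5 H2 genes are uncertain because the tables also list copies of them. Cd48, the ligand of CD2, was at 20.7 ± 14.1 CPM in CD43-KO and 10.9 ± 1.97 CPM in Vec tumours, with an edgeR adjusted p of 0.335 for a log2 fold change of 0.92 ± 0.43 (SE). Alcam, a ligand of CD6, was at 16.8 ± 4.81 CPM in CD43-KO and 12.2 ± 2.19 CPM in Vec tumours (0.47 ± 0.21 SE on the log2 scale, edgeR adjusted p = 0.320). Cdcp1, the other listed ligand of CD6, is named after its values were seen and was near the floor. It was at 0.23 ± 0.40 CPM in CD43-KO and 0.31 ± 0.24 CPM in Vec tumours (-0.40 ± 1.24 SE on the log2 scale, edgeR adjusted p = 0.896).

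Among cytoplasmic partners of CD2, CD5 and CD6, 8 of 11 were above 0 and the median was 0.31. The scaffold gene Cd2ap, whose protein binds the tail of CD2, was at 109 ± 8.38 CPM in CD43-KO and 96.2 ± 12.1 CPM in Vec tumours. Sh3kbp1 was at 96.5 ± 9.18 CPM in CD43-KO and 108 ± 6.96 CPM in Vec tumours, and Cd2bp2 at 63.4 ± 2.29 CPM in CD43-KO and 66.7 ± 2.08 CPM in Vec tumours. None of these 3 adaptors is restricted to T cells. Of the relatives of CD2 in the SLAM family, 8 of 9 were above 0 with a median of 0.99. Cd84 was at 53.8 ± 36.6 CPM in CD43-KO and 29.6 ± 9.05 CPM in Vec tumours, and Slamf8 at 27.1 ± 22.8 CPM in CD43-KO and 12.7 ± 3.08 CPM in Vec tumours. Slamf1, named after its values were seen, was the one gene of the 9 without overlap, against 2.08% of all names on the higher side, at 0.72 ± 0.39 CPM in CD43-KO and 0.18 ± 0.06 CPM in Vec tumours.

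Relatives of CD5 and CD6 with scavenger receptor domains had 5 of 7 tested genes above 0 and a median of 0.36. The macrophage scavenger receptor gene Msr1 was at 130 ± 39.8 CPM in CD43-KO and 84.3 ± 23.8 CPM in Vec tumours. Lgals3bp was at 117 ± 28.3 CPM in CD43-KO and 93.2 ± 10.7 CPM in Vec tumours, and Scara5 at 71.7 ± 17.9 CPM in CD43-KO and 90.2 ± 26.0 CPM in Vec tumours.

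Regulators of the choice between CD4 and CD8 had 10 of 12 genes above 0, with a median of 0.20. The log2 fold changes ran from -0.13 for Tcf7 to 1.29 for Satb1. Bcl11b was at 1.02, Tox at 1.01 and the next, Lef1, at 0.50. Runx3, uncertain because of a copy, was at 0.40, Gata3 at 0.20 and Zbtb7b at 0.01. Zbtb7b was at 62.3 ± 3.88 CPM in CD43-KO and 61.9 ± 4.49 CPM in Vec tumours. These genes are named after their values were seen. Which cells of the mixture carried the transcripts of the regulators was not tested. Group means of Satb1, Bcl11b and Tox lay between 0.31 and 3.01 CPM. The most abundant were Cbfb, the partner of RUNX factors, at 146 ± 7.98 CPM in CD43-KO and 158 ± 2.32 CPM in Vec tumours, and Ets1 at 111 ± 5.77 CPM in CD43-KO and 97.07 ± 5.94 CPM in Vec tumours. Runx1 was at 65.2 ± 10.9 CPM in CD43-KO and 58.8 ± 6.50 CPM in Vec tumours. Cbfb was lower in all 5 CD43-KO tumours than in any Vec tumour, against 3.50% of all names without overlap on the lower side, and its edgeR adjusted p was 0.448. Of 10 other T cell accessory receptors 9 were above 0, with a median of 1.25, and the exception was Spn. Thy1 was at 65.1 ± 30.9 CPM in CD43-KO and 48.5 ± 7.87 CPM in Vec tumours, and Icos, uncertain because of a copy, at 4.96 ± 3.83 CPM in CD43-KO and 1.67 ± 0.53 CPM in Vec tumours.

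**Figure D5:**
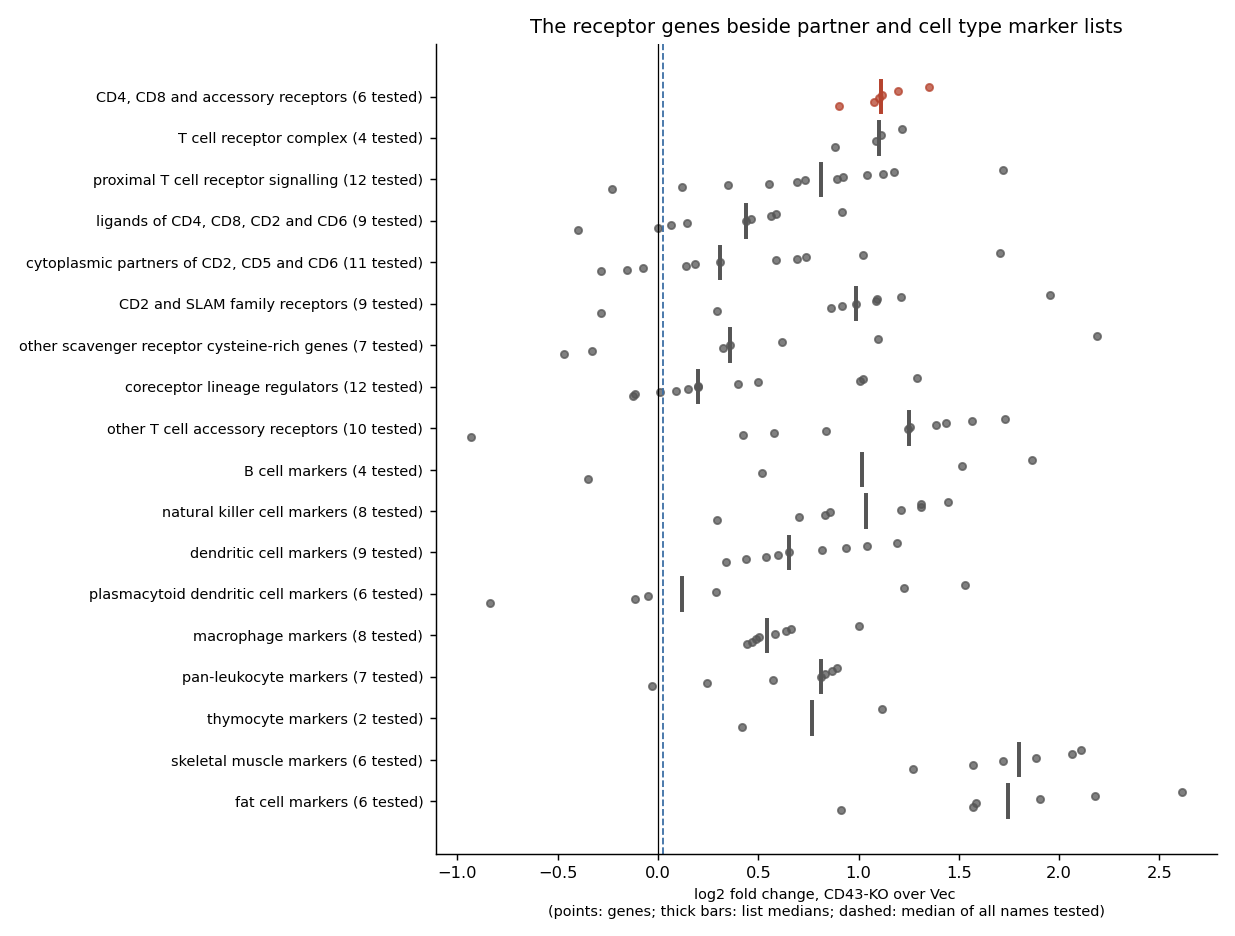
Log2 fold change, CD43-KO over Vec (x axis), of the tested genes of each list (rows); points are genes, thick bars list medians, and the dashed line the median of all names tested, 0.03. The 6 receptor genes, in red, span 0.90 to 1.35, with medians of 1.10 for the T cell receptor complex and 0.20 for coreceptor lineage regulators. The lineage regulators span -0.13 to 1.29.

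Markers of other cells that can carry these receptors moved over the tumours as well. Natural killer markers, as these cells carry CD2, summed to 29.5 to 172 CPM in CD43-KO and 35.2 to 59.2 CPM in Vec tumours, with 8 of 8 genes above 0 and a median log2 fold change of 1.04. Prf1, which encodes perforin and is shared with cytotoxic T cells, was at 20.7 ± 18.3 CPM in CD43-KO and 11.4 ± 1.67 CPM in Vec tumours. The list is thus not exclusive to natural killer cells, and which cells carried its other genes was not tested. Klrd1 was at 21.3 ± 18.5 CPM in CD43-KO and 7.79 ± 4.36 CPM in Vec tumours, and Klrk1 at 12.2 ± 7.64 CPM in CD43-KO and 7.48 ± 2.25 CPM in Vec tumours. Dendritic cell markers, some of these cells carrying CD4 or CD8α, summed to 39.6 to 86.3 CPM in CD43-KO and 36.9 to 49.0 CPM in Vec tumours, with 9 of 9 above 0 and a median of 0.65. Itgax was at 27.9 ± 8.04 CPM in CD43-KO and 20.5 ± 3.35 CPM in Vec tumours, and Ccr7 at 6.51 ± 3.52 CPM in CD43-KO and 4.49 ± 1.26 CPM in Vec tumours. Zbtb46, a transcription factor gene of classical dendritic cells, was the one of the 9 without overlap, against 2.08% of all names on the higher side, at 13.2 ± 1.16 CPM in CD43-KO and 10.4 ± 1.22 CPM in Vec tumours. B cell markers were near the floor, as 4 of 8 passed the filter and the 8 summed to 1.98 to 6.34 CPM in CD43-KO and 1.42 to 2.21 CPM in Vec tumours. Of the 4, 3 were above 0, with a median of 1.02. Fcer2a was at 0.70 ± 0.10 CPM in CD43-KO and 0.89 ± 0.13 CPM in Vec tumours, and Cd79b, a chain of the B cell receptor, at 1.07 ± 0.88 CPM in CD43-KO and 0.29 ± 0.22 CPM in Vec tumours. Plasmacytoid dendritic cell markers summed to 290 to 411 CPM in CD43-KO and 298 to 411 CPM in Vec tumours, with 3 of 6 above 0 and a median of 0.12. Most of these sums was Bst2, at 253 ± 43.4 CPM in CD43-KO and 274 ± 47.6 CPM in Vec tumours. The genes of this list are named after their values were seen. Their log2 fold changes were 1.53 for Ccr9, 1.23 for Siglech, 0.29 for Spib, -0.05 for Tcf4, -0.11 for Bst2 and -0.84 for Ly6d. Macrophage markers summed to 854 to 2675 CPM in CD43-KO and 984 to 1218 CPM in Vec tumours, with 8 of 8 above 0 and a median of 0.54. Genes of all leukocytes summed to 499.6 to 1491 CPM in CD43-KO and 518 to 662 CPM in Vec tumours, with 6 of 7 above 0 and a median of 0.81. The thymocyte genes Rag1 and Rag2 had no count in any tumour. No member of these lists passed the edgeR test over all genes, and the part of these cells in the levels of the receptor genes was not tested.

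CD43-KO replicate 3 had the highest sum of its group in each list except the lineage regulators. Without it, an alternative added after the data were seen, the median log2 fold change of the 6 receptor genes was 0.84, against 0.01 over all 18037 names then tested. Medians were then 0.66 for the T cell receptor complex, 0.62 for proximal signalling, 0.16 for ligands with 5 of 9 above 0, 0.21 for cytoplasmic partners, 0.43 for the SLAM family and 0.24 for scavenger receptor genes with 4 of 7 above 0. They were 0.23 for lineage regulators, 0.92 for other accessory receptors, 0.93 for B cell, 0.58 for natural killer, 0.40 for dendritic cell and 0.34 for macrophage markers. The median was 0.33 for genes of all leukocytes and 0.0072 for plasmacytoid dendritic cell markers. Fat markers turned from 6 of 6 above 0 with a median of 1.75 to 0 of 6 with a median of -1.90, and muscle markers from a median of 1.80 to 0.03 with 4 of 6 above 0. The highest CD43-KO sums were then 93.3 CPM for natural killer, 69.1 CPM for dendritic cell, 1888 CPM for macrophage and 995 CPM for leukocyte genes, each still above the highest Vec sum. No list member was called without it.

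The names whose pattern over the 9 tumours was most like that of the receptor genes included several genes of leukocytes. Likeness was the mean absolute difference between a gene's centred log2 CPM and the mean centred log2 CPM of the 6 genes, over 12437 names with at least 1 CPM on average. The smallest differences were 0.11 for Cybb, a subunit of the phagocyte NADPH oxidase, 0.13 for Ccdc125, and 0.14 for Cd247, a chain of the T cell receptor complex, for Gimap6, for Tbc1d10c and for Il2ra, a chain of the interleukin 2 receptor. The median over the names compared was 0.70. Of the receptor genes, Cd8a and Cd6 differed from the mean of the 6 by 0.10 each and Cd4 by 0.22, the most. Cybb was at 136 ± 78.8 CPM in CD43-KO and 57.1 ± 10.3 CPM in Vec tumours, and Il2ra at 6.14 ± 3.11 CPM in CD43-KO and 3.17 ± 0.41 CPM in Vec tumours. Tbc1d10c is uncertain because the tables list a copy of it.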

How the data were processed

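The authors deposited 1 table of whole-number counts per gene name for each of 9 tumours, unscaled. HISAT2 2.1.0, StringTie 1.3.5, DESeq2 and GRCm38 are listed in the submitters' processing notes without a role. Of the counting step, the annotation and the strand setting, nothing is stated. Of 42454 names, 2346 carried a copy suffix. Replicates were numbered in order of deposition and pair nothing across groups.

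Names were filtered with filterByExpr (minimum count 10, total 15) and scaled by TMM. Group was the one term of edgeR's quasi-likelihood test, fitted with the robust option over 18243 names with Benjamini-Hochberg adjustment at 0.05, using edgeR 4.0.16 (R 4.3.3). DESeq2 1.42.0 and limma 3.58.1 served the alternatives. The script was tested on simulated data. SEs are the log2 fold change over the square root of F. Ratios used exact permutation over tumours. Exon lengths came from GENCODE M21. Alternatives were other tools, scalings, filters and left-out tumours. Genes named were the 6 receptors, CD3 chains, Spn and Ptprc, the 3 most abundant tested members of a list (for lists given by sums only, none), and the 6 most alike in pattern; others are marked as chosen after their values were seen, and Cd48 and Alcam were added as ligands. The 6 genes and all lists were chosen with earlier results of these data known.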

Additional observations from a re-analysis of the deposited data

Results flagged for a closer look

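Of the 30 sets of group values checked for a tumour far from the others (each of the 6 genes and 9 ratios in each group, of which chance flags about 1 in 20), 1 was found. The log2 ratio of Cd8a to the mean of the CD3 chains was 1.57 in CD43-KO replicate 5, and the gap to the next CD43-KO tumour was 0.73 of the range of the group, above Dixon's critical value of 0.71 for 5 samples. In this tumour Cd3e was at 2.33 CPM, below every other tumour.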

How the results depend on the processing

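The log2 fold changes of the 6 receptor genes stayed above 0 under every fit run, and edgeR called none of them under any. With library totals in place of TMM the median of all names moved to 0.11, and the 6 genes lay between 0.97 and 1.44 with the copy name Cd2_1 included. Without each tumour in turn, the edgeR log2 fold changes ranged from 0.58 to 1.12 for Cd8a, 0.87 to 1.36 for Cd8b1, 0.89 to 1.39 for Cd4, 0.93 to 1.59 for Cd2, 0.81 to 1.32 for Cd5 and 0.76 to 1.29 for Cd6. DESeq2 without each tumour in turn, added after the data were seen, gave 0.58 to 1.10 for Cd8a, 0.87 to 1.35 for Cd8b1, 0.89 to 1.38 for Cd4, 0.93 to 1.58 for Cd2, 0.81 to 1.31 for Cd5 and 0.76 to 1.28 for Cd6. It called all 6 genes without CD43-KO replicate 4 and none of the 6 without any other tumour, although the copy name Cd2_1 was called without Vec replicate 3 (adjusted p = 0.0473, against 0.0511 for Cd2). Leaving out CD43-KO replicate 4, DESeq2 gave 1.10, 1.35, 1.37, 1.58, 1.31 and 1.28 for Cd8a, Cd8b1, Cd4, Cd2, Cd5 and Cd6; the cause was not tested.

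The number of names called moved from 0 to 612 with DESeq2, 562 with limma voom, 1 without the filter, 0 to 29 with edgeR without single tumours (29 without Vec replicate 3, 1 without Vec replicate 2 and 1 without CD43-KO replicate 2) and 195 to 1204 with DESeq2 without single tumours. Those DESeq2 counts were 210, 227, 1204, 1180 and 469 without CD43-KO replicates 1 to 5 and 195, 283, 1101 and 272 without Vec replicates 1 to 4. The cause was not tested. The difference of Cd8a to Cd4 ranged from -0.58 to -0.23 without single tumours. It was -0.32 with the mean of Cd8a and Cd8b1 over Cd4 (two-sided exact permutation p = 0.325). Cd2 to CD3 ranged from 0.20 to 0.45, Cd4 to CD3 from 0.20 to 0.46, Cd6 to CD3 from 0.0057 to 0.26 and Cd8b1 to Cd8a from 0.06 to 0.31. Differences near 0 changed sign without single tumours: Cd6 to Cd5 ranged from -0.26 to 0.10, Cd8a to CD3 from -0.14 to 0.011, Cd8b1 to CD3 from -0.053 to 0.27 and Cd5 to CD3 from -0.014 to 0.28. With Cd3e alone in place of the 3 CD3 chains Cd8a to CD3 was 0.044. No paired analysis was possible because the labels give no replicate numbers shared between groups.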
